A study of Mus musculus with 12 samples.

Results

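The genes described here are 9 that mark the macrophage and the lineage it comes from, Spi1, Cebpa, Irf8, Maf, Csf1r, Mertk, Cd14, Adgre1 and Cd68, among the 56941 genes counted in cultured mouse macrophages. They were chosen by name, with earlier results of these data known. Each was matched to a single gene identifier of the count tables, and all 9 passed the filter on low counts in every comparison. C57BL/6J mice were WT or carried a deletion of miR-210 (KO), which was made by crossing miR-210 floxed mice with a Gata-1 Cre line, and both genotypes came from matings of heterozygous mice. The age of the mice is not given in the sources used here. Monocytes were taken from bone marrow by removing the other cell types with magnetic beads and grown for 7 days to M0 macrophages in 20% serum with 30% L929-conditioned medium, which comes from a fibroblast line and supplies M-CSF. IL-4 at 20 ng/mL for a further 72 h gave M2 macrophages, and the M0 wells were kept in the same medium without IL-4. RNA was sequenced from 3 libraries each of WT M0, KO M0, WT M2 and KO M2.

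Macrophages are specified by a small set of transcription factors. PU.1, encoded by Spi1, opens myeloid enhancers and binds many of them with C/EBP factors such as the product of Cebpa or with IRF8, whereas c-Maf, encoded by Maf, belongs to the large Maf factors of mature macrophages. These factors act on genes such as Csf1r, whose product is the receptor for M-CSF and keeps macrophages alive. The remaining genes encode proteins by which macrophages are recognized or sense their surroundings. MERTK is a receptor tyrosine kinase that binds apoptotic cells through the bridging ligands GAS6 and protein S, CD14 presents lipopolysaccharide to the TLR4 complex, ADGRE1 is the surface antigen F4/80, and CD68 is a glycoprotein of lysosomes and endosomes.

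The libraries held between 7930525 and 10167695 counts, and mitochondrial genes took between 0.894% and 0.968% of them in the 6 M0 libraries and between 1.02% and 1.18% in the 6 M2 libraries. This share moved with IL-4 without overlap, and its part in the differences between M2 and M0 was not tested. The precursor gene of the deleted miRNA, Mir210 (GRCm39, chr7:140801297-140801406, minus strand), was counted 1, 3 and 5 times in WT M0, 1, 2 and 1 times in WT M2 and 0 times in all 6 KO libraries. Long-RNA libraries capture few such precursors, so this bears on the labels with few counts. Levels are given as counts per 1000000 counts of a library (CPM), scaled between libraries by the TMM method, and are means ± SD with n = 3. Batch names in the labels coincide with the groups, so a batch effect cannot be told apart from a group effect, and the labels do not say whether the 3 libraries came from separate mice, so p-values measure the spread between these libraries. In bulk RNA, fewer cells expressing a gene and less RNA per cell cannot be told apart.

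All 12 macrophage markers examined, the 9 genes with Itgam, Lyz2 and Fcgr1, were detected in every library, and their summed level was 11120 to 12409 CPM in M0 and 8998 to 9836 CPM in M2. Lyz2 was the largest part of this sum, at means of 5212 CPM in WT M0 and 3999 CPM in WT M2. The markers did not move together, since Spi1, Cebpa, Csf1r, Cd68 and Itgam had higher means in M2 in both genotypes. Markers of other cells were close to undetected, apart from the dendritic cell list. The 6 lymphocyte markers summed to between 0 and 0.248 CPM, with 5 of them, Cd3e, Cd3g, Ms4a1 and Ncr1 included, at 0 counts throughout. The 5 mast cell and basophil markers summed to between 0 and 0.211 CPM. The 8 neutrophil markers, with Ly6g at 0 throughout, summed to 2.83 to 5.16 CPM in WT M2 and 0.812 to 2.8 CPM in the other groups. The 5 erythroid markers summed to 0.105 to 4 CPM and the 6 fibroblast markers to 0.123 to 2.29 CPM. Of the erythroid markers, Hbb-bs and Hba-a1 were at 0 CPM in both KO groups. In WT, Hbb-bs averaged 0.962 CPM in M0 and 0.919 CPM in M2, and Hba-a1 averaged 0.273 and 0.392 CPM. Epor went the other way, at 0.256 and 0.0351 CPM in WT M0 and M2 and 0.395 and 0.163 CPM in KO. The part of these erythroid genes in the results was not tested. The 6 dendritic cell markers moved with IL-4, from 0.516 to 1.45 CPM in M0 to 11.2 to 19.3 CPM in M2, and most of that was Zbtb46 alone (mean 14.9 CPM in WT M2 and 11 CPM in KO M2). Ccr7 was also higher in M2, at means of 0.927 CPM in WT and 0.641 CPM in KO, beside 0.314 and 0.208 CPM in M0. Flt3, Clec9a and Siglech had 3 counts or fewer in every library and Xcr1 had at most 6. The part of this list in the results was not tested.

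The sequences through which these genes could connect to miR-210 and to each other are shown first. A mature miRNA that the KO lacks, miR-210-3p, is given with its seed, bases 2 to 8, in capitals, because a direct target would be expected to carry the complement of the seed in its 3′ UTR.
mmu-miR-210-3p: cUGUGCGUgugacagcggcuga
The matching site, ACGCACA, occurred in 726 of 20854 mouse 3′ UTRs (3.48%) and in 0 of the 9 canonical 3′ UTRs described here, which ranged from 158 bases in Cd68 to 3745 bases in Irf8. A match to bases 3 to 8 alone occurred in 7% of all 3′ UTRs and again in 0 of the 9. This says only that these letters are not in these UTRs. Sites of miR-210-5p, the other mature miRNA of this gene, were not searched for.

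RefSeq promoter windows, from 250 bases before to 50 bases after a transcription start on GRCm38.p6, were matched for 4 of the 9 genes, Cd68, Irf8, Cebpa and Mertk, and not for Spi1, Maf, Csf1r, Adgre1 and Cd14. These 4 genes differ in their response to IL-4, since Cebpa rose, Irf8 and Mertk fell and Cd68 was not called. They are printed 5′ to 3′ in the direction of transcription. Capitals mark every match, on either strand, to the PU.1 core GAGGAA, the ETS-IRF composite GGAANNGAA, the interferon-response-like GAAANNGAA, the C/EBP sequence TTGCNNAA, the MAF core TGCTGA and a STAT6 sequence of TTC and GAA with 4 bases between them. Of 32851 windows of this length, 28.3%, 8.24%, 8.56%, 10.8%, 19.5% and 6.95% held them.
Cd68, chr11:69666121-69666420, minus strand: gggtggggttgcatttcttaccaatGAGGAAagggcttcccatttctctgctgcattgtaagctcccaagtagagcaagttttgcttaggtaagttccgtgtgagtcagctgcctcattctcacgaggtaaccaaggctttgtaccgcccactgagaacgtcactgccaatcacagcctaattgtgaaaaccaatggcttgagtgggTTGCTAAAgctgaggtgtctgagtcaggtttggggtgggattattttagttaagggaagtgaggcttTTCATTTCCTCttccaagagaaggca
Irf8, chr8:120736108-120736407, plus strand: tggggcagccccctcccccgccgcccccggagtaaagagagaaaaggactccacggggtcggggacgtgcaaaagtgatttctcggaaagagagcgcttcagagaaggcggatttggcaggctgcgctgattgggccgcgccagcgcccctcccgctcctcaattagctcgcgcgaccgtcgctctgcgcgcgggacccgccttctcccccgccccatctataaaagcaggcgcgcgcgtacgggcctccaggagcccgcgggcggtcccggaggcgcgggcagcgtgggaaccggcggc
Cebpa, chr7:35119043-35119342, plus strand: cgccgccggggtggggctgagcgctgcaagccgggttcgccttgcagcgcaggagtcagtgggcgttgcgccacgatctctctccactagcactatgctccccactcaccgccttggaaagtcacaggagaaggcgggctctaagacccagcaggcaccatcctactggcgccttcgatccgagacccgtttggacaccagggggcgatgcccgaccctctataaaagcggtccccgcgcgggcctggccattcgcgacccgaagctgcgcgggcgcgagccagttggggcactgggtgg
Mertk, chr2:128698665-128698964, plus strand: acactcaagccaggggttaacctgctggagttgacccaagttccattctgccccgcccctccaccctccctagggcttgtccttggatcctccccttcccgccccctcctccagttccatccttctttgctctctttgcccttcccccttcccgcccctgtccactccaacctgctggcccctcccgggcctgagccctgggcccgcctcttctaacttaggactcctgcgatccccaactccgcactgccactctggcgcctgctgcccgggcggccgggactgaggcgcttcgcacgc
The Cd68 window held 2 PU.1 cores, a C/EBP sequence and an ETS-IRF composite that overlaps the second PU.1 core. The other 3 windows held none of the 6 motifs. A second Irf8 window (chr8:120738389-120738688, plus strand) held 1 MAF core and is not printed. A match is a description of the letters and not of binding.

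Levels were also compared as CPM per 1000 exon bases, where the length is that of all annotated exons of a gene together. This length can exceed that of the transcript, so the order of genes depends on the annotation. By this measure the 9 genes were among the more abundant of 14743 genes, and the lowest of them, Mertk, lay at the 91.3th percentile of the mean over all 12 libraries. Cd68 was the 11th highest of these genes, with a mean level of 833 CPM per 1000 bases. In WT M0 the order was Cd68 (758 ± 72.7), Adgre1 (290 ± 22.1), Cd14 (246 ± 17), Spi1 (143 ± 9.47), Maf (120 ± 10.5), Csf1r (111 ± 4.01), Cebpa (57.4 ± 8.08), Mertk (42.1 ± 1.97) and Irf8 (40 ± 3.76). The libraries of Maf and Csf1r overlapped, as did those of Mertk and Irf8, and the other neighbours in this order did not. In WT M2 the order became Cd68 (843 ± 13.1), Adgre1 (244 ± 3.69), Cd14 (172 ± 9.41), Spi1 (169 ± 7.14), Cebpa (136 ± 7.83), Csf1r (115 ± 9.17), Maf (35.9 ± 1.79), Irf8 (23.1 ± 0.354) and Mertk (16.7 ± 1.1), where only Cd14 and Spi1 overlapped as neighbours. In WT, Cebpa stood below both Maf and Csf1r in M0 and above both in M2. The KO groups gave the same order in M2, with overlap of Spi1 with Cebpa and of Cebpa with Csf1r, and in M0 differed only in Cd14 and Adgre1, which both averaged 311 and overlapped.

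**Figure D1:**
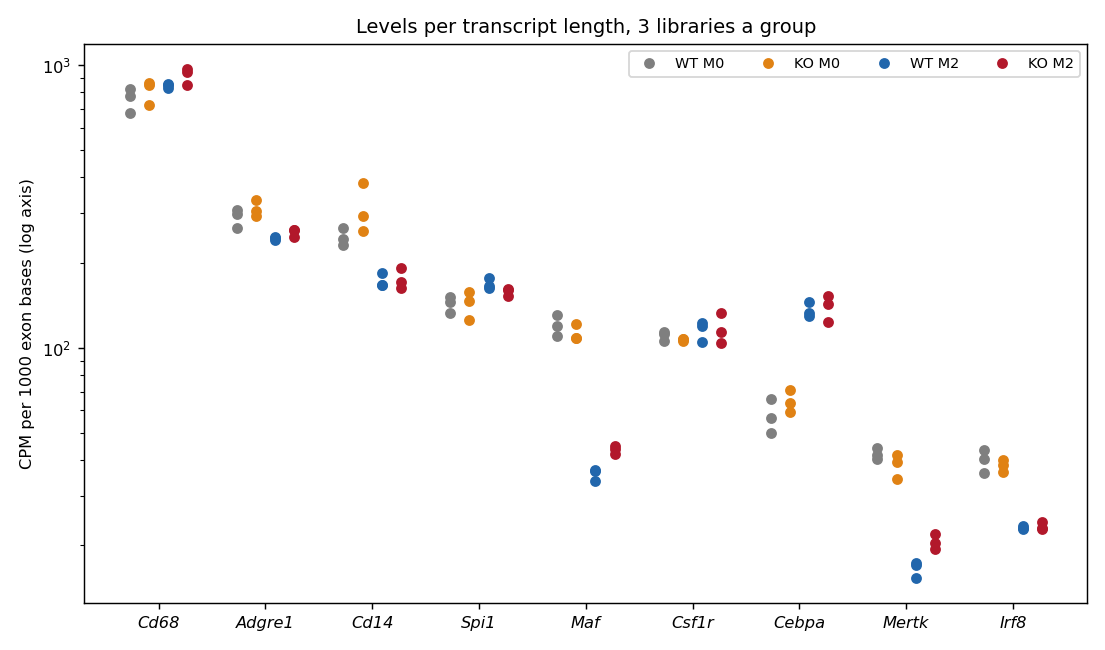
Level of each gene per length of its annotated exons in the 12 libraries, as CPM per 1000 exon bases on a log axis, with genes ordered by their WT M0 mean and 1 point per library. Cd68 is highest in every group, Maf moves from 120 in WT M0 to 35.9 in WT M2, and Cebpa from 57.4 to 136.

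IL-4 split these lineage genes. In WT macrophages Maf, Mertk, Irf8 and Cd14 fell and Cebpa rose, while Spi1, Csf1r, Adgre1 and Cd68 moved by less than the limit or did not pass the test. Calls required both an adjusted p under 0.05 in edgeR's quasi-likelihood test and a change of more than 1.2-fold. By this rule 1 of the 9 was higher and 4 were lower in WT M2 than in WT M0, in a comparison in which 43% of the 14266 genes tested were called, 22.1% higher and 20.9% lower. In KO macrophages 1 was higher and 5 were lower, where 33.8% of 14331 genes were called, 17.4% higher and 16.4% lower. The 5 and 6 of 9 called are to be read against these shares of all genes. Their median log2 fold change was -0.25 in WT and -0.28 in KO, beside -0.001 and -0.008 over all genes tested. The WT and KO comparisons share no libraries.

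**Figure D2:**
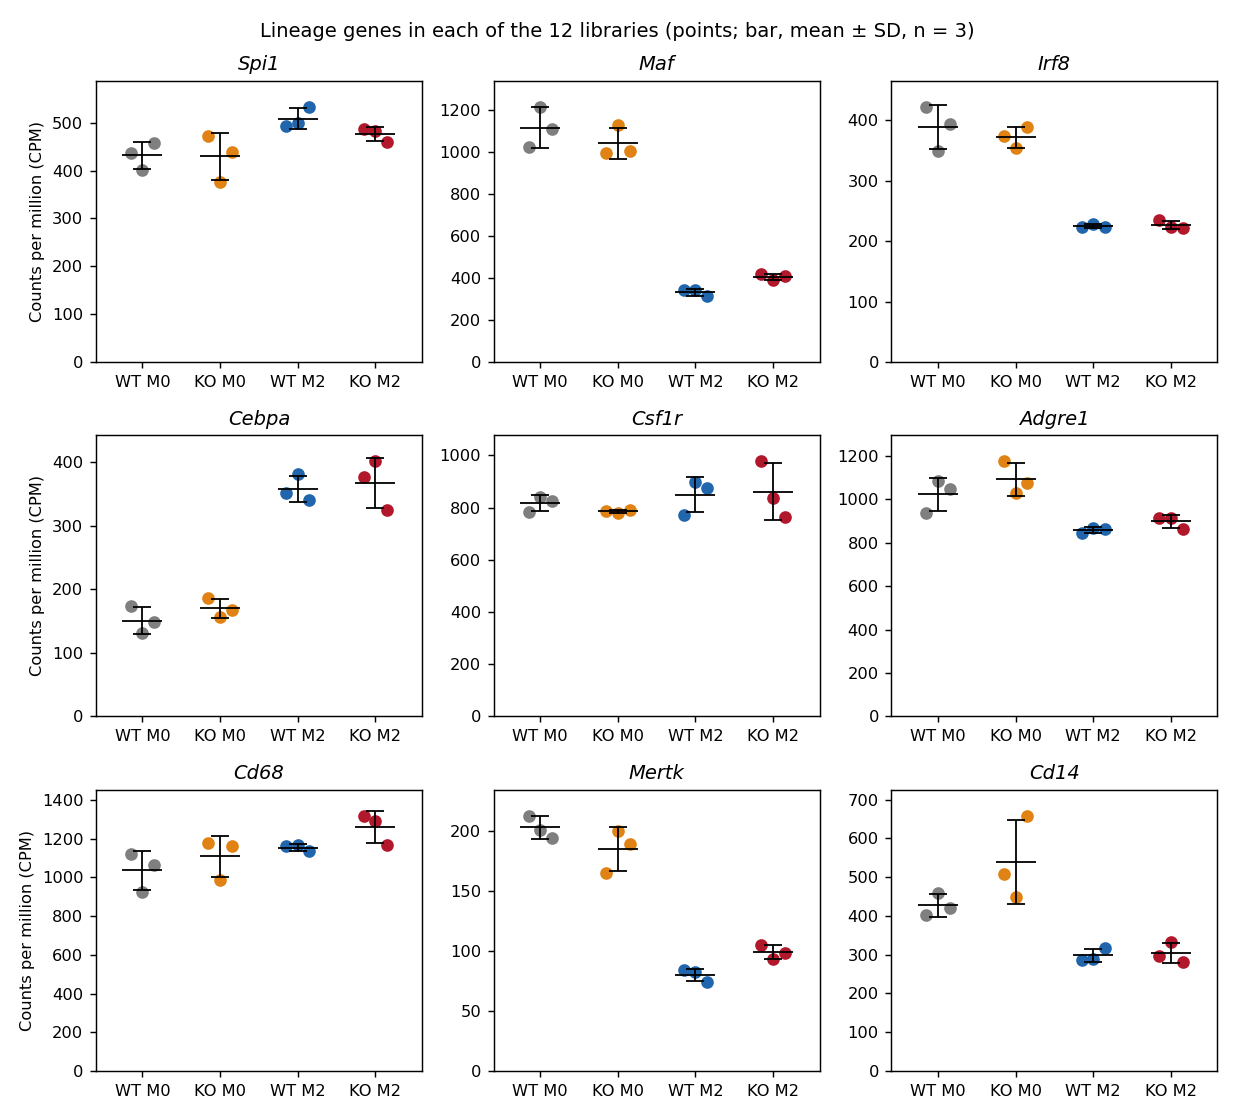
CPM of the 9 genes in each library (points), with the mean and SD of each group of 3 (bars), on linear axes that start at 0. Maf, Mertk, Irf8 and Cd14 are lower and Cebpa is higher in all 6 M2 libraries than in all 6 M0 libraries.

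Of the 4 transcription factors, Maf changed most (GRCm39, chr8:116409632-116434579, minus strand). Its level was 1023, 1217 and 1108 CPM in WT M0 and 343, 341 and 314 CPM in WT M2, and it was 998, 1127 and 1003 CPM in KO M0 and 417, 390 and 408 CPM in KO M2. No M2 library came near an M0 library in either genotype. The log2 fold change was -1.74 (SE 0.08, 95% confidence interval -1.91 to -1.57, adjusted p = 9.2e-10) in WT and -1.36 (SE 0.08, -1.53 to -1.20, adjusted p = 3e-08) in KO, so that IL-4-treated macrophages kept 0.299-fold and 0.389-fold of the M0 level.

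Cebpa (chr7:34818718-34821353, plus strand), whose product drives the step from progenitor to granulocyte and monocyte, went the other way and was the only one of the 9 called higher. It was at 174, 131 and 149 CPM in WT M0 and 352, 381 and 341 CPM in WT M2, and at 187, 156 and 168 CPM in KO M0 and 377, 402 and 325 CPM in KO M2. Every M2 library thus lay well above every M0 library. The change was 2.38-fold in WT (log2 1.25, SE 0.09, adjusted p = 9e-08) and 2.16-fold in KO (log2 1.11, SE 0.10, adjusted p = 1.5e-06).

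Irf8 (chr8:121463096-121485659, plus strand), a factor of monocytes and dendritic cells that partners PU.1, fell in both genotypes. Its level was 423, 350 and 394 CPM in WT M0, 375, 354 and 389 CPM in KO M0, 223, 229 and 223 CPM in WT M2 and 235, 223 and 222 CPM in KO M2. The M2 libraries were closely grouped in both genotypes and did not overlap the M0 libraries. The log2 fold change was -0.78 (SE 0.07, adjusted p = 1e-06) in WT and -0.72 (SE 0.07, adjusted p = 6.7e-06) in KO.

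Spi1 (chr2:90912562-90946101, plus strand) was at 437, 401 and 457 CPM in WT M0 and 494, 500 and 534 CPM in WT M2, and at 473, 376 and 440 CPM in KO M0 and 488, 482 and 460 CPM in KO M2. The WT groups did not overlap and the KO groups did. In WT the log2 difference of 0.24 (SE 0.07, 95% confidence interval 0.10 to 0.39) had an adjusted p of 0.0089 and stayed under the 1.2-fold limit, so Spi1 was not called. Without WT M0 library 3 the difference was 0.28 and without WT M2 library 1 it was 0.27, both past the limit. In KO it was 0.15 (-0.04 to 0.34, adjusted p = 0.22).

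Of the receptors, Mertk (chr2:128540729-128645080, plus strand) fell most. It was at 213, 201 and 194 CPM in WT M0 and 83.8, 82.4 and 74 CPM in WT M2, and at 165, 200 and 189 CPM in KO M0 and 105, 93.4 and 98.2 CPM in KO M2. The groups were far apart in both genotypes. The log2 fold change was -1.33 (SE 0.07, adjusted p = 4.3e-09) in WT and -0.90 (SE 0.09, adjusted p = 5.4e-06) in KO.

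Cd14 (chr18:36858120-36859851, minus strand) was at 401, 459 and 421 CPM in WT M0 and 287, 290 and 317 CPM in WT M2, and at 508, 449 and 659 CPM in KO M0 and 296, 333 and 282 CPM in KO M2. Both pairs of groups were separate, and KO M0 library 3 stood above the other KO M0 libraries. The log2 fold change was -0.51 (SE 0.07, adjusted p = 4.5e-05) in WT and -0.83 (SE 0.12, adjusted p = 0.00019) in KO, and without KO M0 library 3 the KO value was -0.67 and still called.

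Csf1r (chr18:61229714-61266535, plus strand), the receptor on which these cultures depend, did not pass the test in either genotype. Its level was 784, 841 and 825 CPM in WT M0, 787, 780 and 791 CPM in KO M0, 772, 899 and 875 CPM in WT M2 and 978, 837 and 764 CPM in KO M2, and M0 and M2 overlapped. The 95% confidence interval of the log2 difference was -0.09 to 0.22 in WT (adjusted p = 0.51) and -0.06 to 0.32 in KO (adjusted p = 0.30), which bounds a change at 1.16-fold in WT and 1.25-fold in KO.

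Adgre1 (chr17:57665573-57790527, plus strand), the F4/80 gene, was at 936, 1085 and 1048 CPM in WT M0 and 844, 868 and 863 CPM in WT M2, and at 1177, 1029 and 1075 CPM in KO M0 and 916, 916 and 865 CPM in KO M2. The M2 libraries were lower without overlap in both genotypes, by little. The log2 difference was -0.25 (SE 0.07, adjusted p = 0.01) in WT, under the limit, and -0.28 (SE 0.08, adjusted p = 0.011) in KO, where the gene was called. These values are alike, and 1 library decides each call, since the WT value was -0.31 and called without WT M0 library 1 and the KO value was -0.23 and not called without KO M0 library 1. Cd68 (chr11:69555037-69557067, minus strand) was at 1122, 927 and 1063 CPM in WT M0, 1162, 1167 and 1134 CPM in WT M2, 1178, 988 and 1162 CPM in KO M0 and 1320, 1293 and 1165 CPM in KO M2. Its log2 difference of 0.16 (95% confidence interval 0.00 to 0.32, adjusted p = 0.093) in WT and 0.18 (-0.01 to 0.37, adjusted p = 0.13) in KO did not pass the test.

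**Figure D3:**
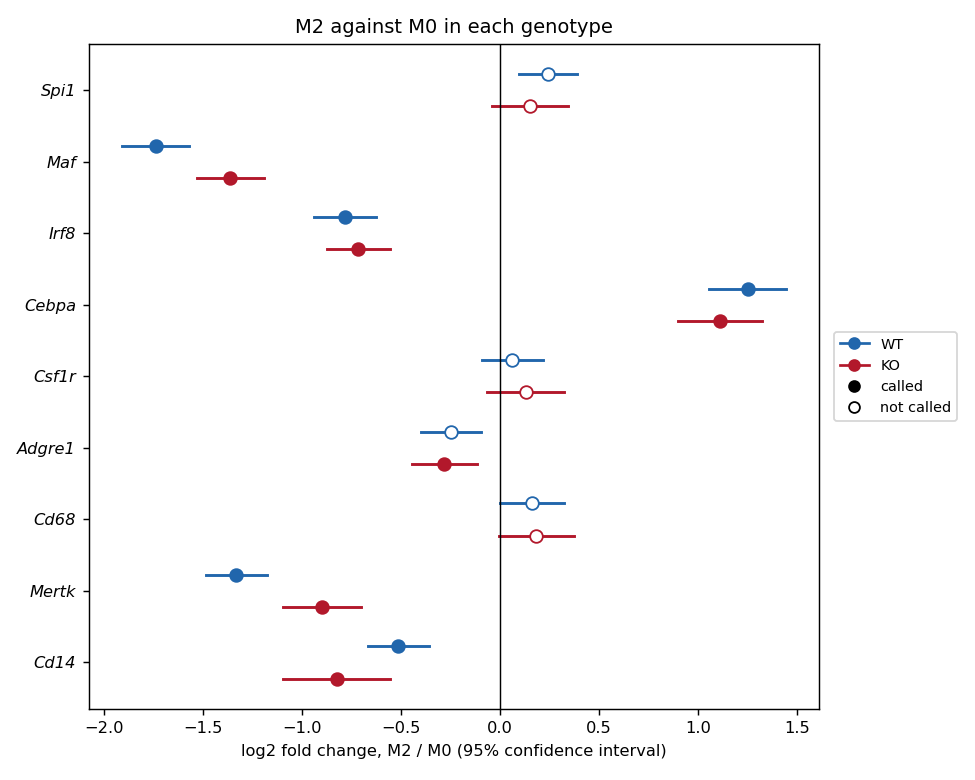
Log2 fold change of each gene, M2 over M0, in WT (blue) and KO (red) with 95% confidence intervals, where filled points are called genes. Maf and Mertk lie furthest to the left (-1.74 and -1.33 in WT), Cebpa lies furthest to the right (1.25 in WT), and Csf1r, Cd68 and Spi1 are open in both genotypes.

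In WT the 3 M2 libraries were separate from the 3 M0 libraries for 8 of the 9 genes, all but Csf1r, beside 57% of all genes tested, and in KO for 6 of the 9, beside 46.3%.

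Genes around these 9 were examined as 5 lists by role, which were chosen with earlier results of these data known. In WT, 53 of the 78 list genes tested were called between M2 and M0, beside 43% of all genes tested, and 53 of 78 were called in KO, beside 33.8%. Among other lineage transcription factors 10 of 19 tested rose and 2 fell in WT, and the counts in KO were also 10 and 2 although the genes called higher were not all the same, with a median log2 fold change of 0.74 in WT and 0.46 in KO. The largest increases were in Gata2, Bhlhe40 and Egr2. Gata2 had 0 counts in all WT M0 libraries and 31 to 39 counts in WT M2 (4.15 ± 0.399 CPM), at least 10.9-fold above the limit of 3 counts per library. Bhlhe40, a helix-loop-helix repressor, went from 6.65 ± 1.12 to 745 ± 74 CPM in WT, and Egr2, a zinc finger factor, from 27.9 ± 4.66 to 479 ± 28 CPM. Both were also called in KO, with log2 fold changes of 6.39 and 3.45. The 2 that fell were Bhlhe41, at -1.64 (SE 0.09) in WT, and the ETS factor Fli1, at -0.78 (SE 0.07).

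Genes of the list of CSF1 receptor ligands and signalling were called in both directions, 6 higher and 8 lower of 17 tested in WT and 7 and 7 in KO, with medians of 0.02 and 0.14. This list also holds Csf2ra, Csf2rb and Csf3r, genes of other CSF receptors, which were each called higher in both genotypes and are part of these counts. Over all genes tested, 22.1% were called higher and 20.9% lower in WT, and 17.4% and 16.4% in KO. SRC family kinase genes, whose products act after the receptor, went both ways. Src went from 2.81 ± 0.334 to 55.7 ± 3.3 CPM and Fyn from 45.8 ± 6.61 to 173 ± 10.3 CPM in WT, whereas Lyn fell from 506 ± 18.3 to 211 ± 3.46 CPM. Csf2rb, the shared receptor subunit for GM-CSF, IL-3 and IL-5, rose from 239 ± 12.4 to 951 ± 31.5 CPM. Pik3r1, a regulatory subunit of PI3 kinase, fell by 0.81 (SE 0.11) on the log2 scale in WT and was not called in KO, a difference between genotypes that was not called by the interaction test.

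Partners of MERTK in the uptake of apoptotic cells also went both ways, with 4 of 13 tested higher and 5 lower in WT and 6 higher and 5 lower in KO. The shares over all genes were 22.1% higher and 20.9% lower in WT, and 17.4% and 16.4% in KO. Like Mertk itself, its ligand Gas6 fell, from 794 ± 37.1 to 191 ± 23.2 CPM in WT, and the related receptor Axl fell from 20.3 ± 5.45 to 2.93 ± 0.621 CPM. The scavenger receptor Stab1 fell from 912 ± 172 to 247 ± 29.5 CPM. Mfge8, a bridging protein that links apoptotic cells to integrins, rose from 38.8 ± 0.954 to 303 ± 12.2 CPM, Cd36 from 864 ± 40.7 to 1700 ± 46.7 CPM and Pros1, the gene of protein S, from 45.3 ± 1.41 to 78.1 ± 11.1 CPM. Genes of the bridging ligands were thus found on both sides, with Gas6 lower and Mfge8 and Pros1 higher after IL-4.

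Of the 12 genes of the CD14 and TLR4 complex, 2 rose and 5 fell in WT and 2 rose and 3 fell in KO. Beside these stand 22.1% of all genes higher and 20.9% lower in WT, and 17.4% and 16.4% in KO. Tlr4 rose by 0.36 (SE 0.06) and its adaptor gene Ticam2 by 0.66 (SE 0.08) on the log2 scale in WT, while Cd14 fell. Ly86 and Cd180, which encode a complex related to that of TLR4, fell by 1.00 (SE 0.09) and 0.78 (SE 0.11), and Lbp, the gene of the lipopolysaccharide-binding protein, went from 7.06 ± 1.36 to 1.55 ± 0.592 CPM.

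Among other macrophage and monocyte markers 6 of 17 tested rose and 5 fell in each genotype. All genes tested gave 22.1% higher and 20.9% lower in WT, and 17.4% and 16.4% in KO. Itgax, the gene of CD11c, went from 3.42 ± 0.847 to 698 ± 33.8 CPM in WT, Adgre5 from 14.6 ± 6.41 to 63.1 ± 6.46 CPM and Cd9 from 24 ± 2.06 to 92 ± 1.5 CPM. Siglec1 fell from 3249 ± 340 to 736 ± 16.2 CPM, the Fc receptor gene Fcgr1 from 499 ± 95.6 to 63.4 ± 4.47 CPM and Aif1, the gene of IBA1, from 42.4 ± 5.83 to 8.41 ± 0.632 CPM. Genes used as markers of the same cell therefore differed widely in their response, from Fcgr1 at -2.97 to Itgax at 7.66 on the log2 scale, while Csf1r, Cd68, Spi1 and Adgre1 lay within 0.25 of 0 in WT.

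**Figure D4:**
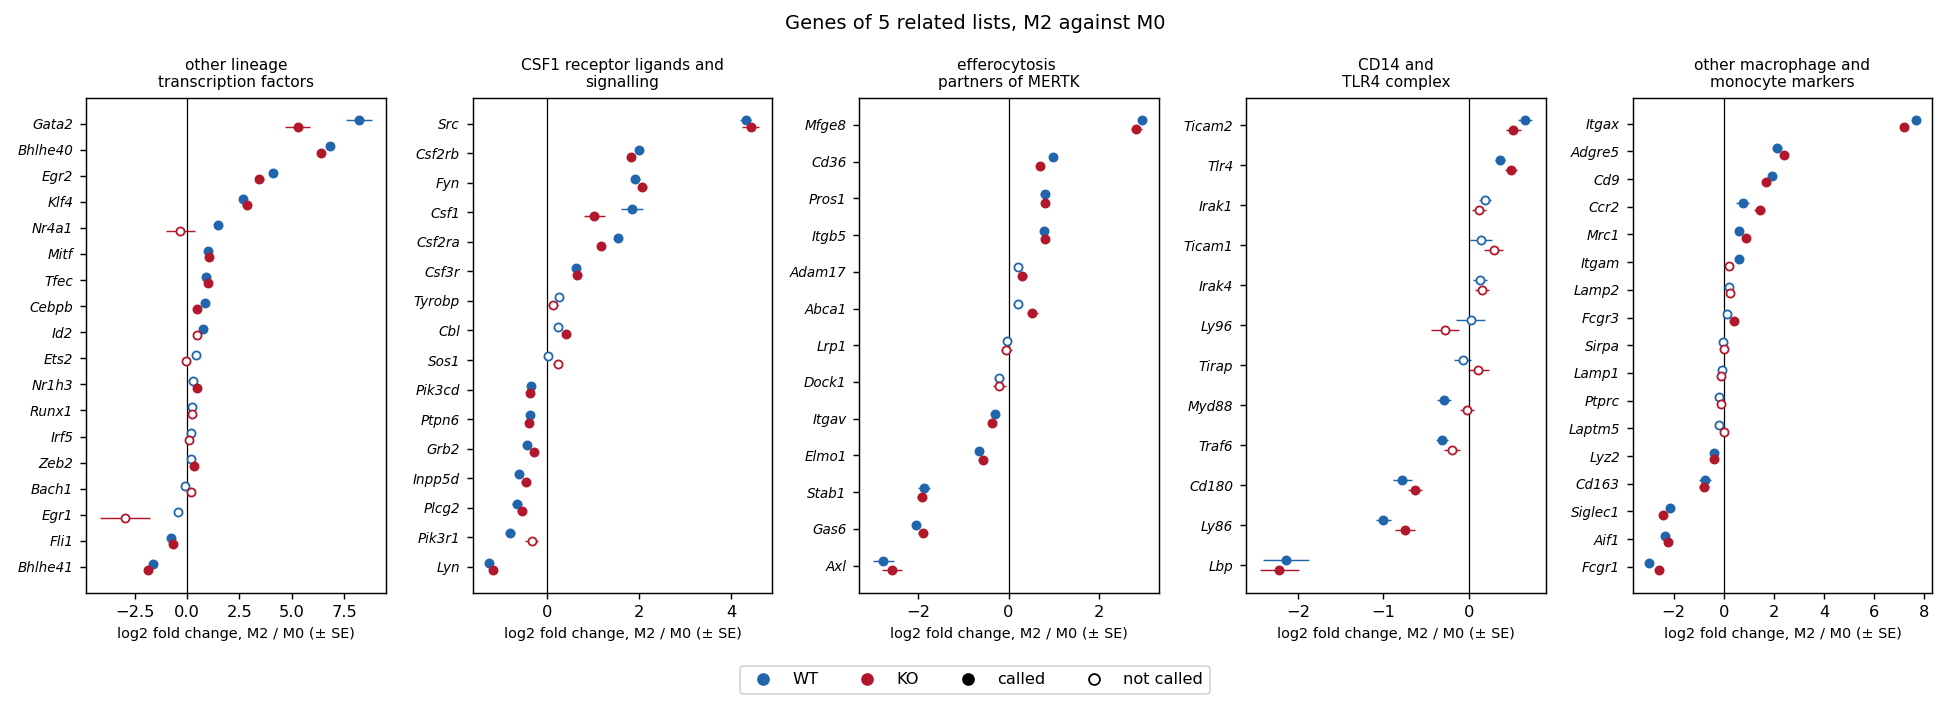
Log2 fold change, M2 over M0, with its SE for genes of 5 related lists in WT (blue) and KO (red), where filled points are called genes and each panel has its own scale. Each list holds genes called in both directions, with Itgax at 7.66 and Fcgr1 at -2.97 in WT as the ends of the marker panel. Gata2 had 0 counts in WT M0, so its plotted value depends on the prior count.

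Between KO and WT in M0, none of the 9 genes was called, in a comparison in which 0.461% of 14089 genes were called. Their log2 differences lay between -0.13 (Mertk) and 0.34 (Cd14), 4 higher and 5 lower in KO, and no gene had groups that did not overlap, beside 14.4% of all genes tested. Cd14 differed most, with 427 ± 29.5 CPM in WT M0 and 539 ± 109 CPM in KO M0. Its log2 difference of 0.34 (SE 0.13, 95% confidence interval 0.05 to 0.62) had an adjusted p of 0.38, was 0.16 without KO M0 library 3, and was called when no filter on low counts was used (adjusted p = 0.011). The fit without the filter called 532 genes in all. Cd14 was also the only one of the 9 with an unadjusted p under 0.05, and the DESeq2 Wald test called 0 of the 9. For Spi1 the interval was -0.22 to 0.21, for Csf1r -0.22 to 0.11, for Adgre1 -0.10 to 0.29 and for Cd68 -0.12 to 0.32. These intervals do not show that the genotypes are alike. Of the 77 list genes tested in this comparison, edgeR called 0, with 10 at an unadjusted p under 0.05, and the DESeq2 Wald test called 4. Among these were Fcgr1 (335 ± 18.2 CPM in KO M0 and 499 ± 95.6 CPM in WT M0), the cholesterol exporter gene Abca1 (509 ± 74.4 and 696 ± 111 CPM) and the chemokine receptor gene Ccr2 (2.15 ± 0.466 and 5.55 ± 2.37 CPM), named after their values were seen, with adjusted p values of 0.083 to 0.22 in edgeR. The sum of the fibroblast markers moved with genotype here, at 0.913 to 1.24 CPM in WT M0 and 1.78 to 2.29 CPM in KO M0. Col1a2 moved most, from a mean of 0.496 CPM in WT M0 to 1.09 CPM in KO M0, with at most 16 counts in a library. Means of Col1a1, Col3a1 and Pdgfra were also higher in KO M0, and those of Dcn and Lum were lower. The part of these markers in the values above was not tested.

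Between KO and WT in M2, 1 of the 9 genes was called, Maf, beside 0.98% of 13980 genes called in all and 0.408% called higher. Maf was higher in KO M2, at 405 ± 13.7 CPM against 333 ± 16.6 CPM, and the lowest KO M2 library (390 CPM) lay above the highest WT M2 library (343 CPM). The log2 fold change was 0.29 (SE 0.06, 95% confidence interval 0.17 to 0.40, adjusted p = 0.019), a 1.22-fold difference that only just exceeded the limit. Leaving out a library moved it between 0.25 and 0.32, and it was called in 3 of these 6 fits, with no call without WT M2 library 3 (adjusted p = 0.12), KO M2 library 1 (adjusted p = 0.10) or KO M2 library 2 (adjusted p = 0.054). Of 7 alternatives with no library left out, 5 called Maf, among them the DESeq2 Wald test (adjusted p = 0.0018). The fit of all 12 libraries (adjusted p = 0.18) and the log2 limit of 1 did not.

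Mertk showed a difference of the same size that was not called. It was at 99 ± 6.02 CPM in KO M2 and 80.1 ± 5.29 CPM in WT M2, again without overlap, with a log2 difference of 0.31 (SE 0.07, 0.16 to 0.46) and an adjusted p of 0.051. It was called by the DESeq2 Wald test (adjusted p = 0.048), with no filter on low counts (adjusted p = 0.0034) and without KO M2 library 3 (adjusted p = 0.033), and over the 6 fits with a library left out its adjusted p ranged from 0.033 to 0.27. The fit without the filter called 360 genes in all. The libraries of KO and WT M2 were separate for Maf, Mertk and Spi1 (477 ± 14.8 CPM in KO and 509 ± 21.6 CPM in WT, log2 difference -0.09, adjusted p = 0.59), 3 of the 9, beside 16% of all genes tested. For the other 6 genes the log2 differences lay between 0.016 (Irf8) and 0.13 (Cd68), with adjusted p values from 0.37 to 0.95. The sum of the neutrophil markers moved with genotype in M2, at 2.83 to 5.16 CPM in WT and 1.13 to 2.09 CPM in KO. Most of it was S100a8, at means of 3.18 CPM in WT M2 and 1.38 CPM in KO M2. S100a8 went the other way in M0, at 0.799 CPM in WT and 1.6 CPM in KO. Of the 8 markers, 6 had 3 counts or fewer in every library. The part of these markers in the values above was not tested.

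Of the 78 list genes tested between KO and WT in M2, 3 were called, all lower in KO, beside 0.98% of all genes called and 0.572% called lower. Mfge8 was at 216 ± 20.5 CPM in KO M2 and 303 ± 12.2 CPM in WT M2 (log2 difference -0.48, SE 0.07, adjusted p = 0.001), and it was called with any 1 of the 6 libraries left out. Src was at 41.8 ± 5.35 CPM in KO and 55.7 ± 3.3 CPM in WT (adjusted p = 0.037), and its call was lost in 5 of the 6 fits with a library left out, all but the one without KO M2 library 1. Csf2ra, the GM-CSF receptor subunit, was at 196 ± 15.1 CPM in KO and 239 ± 12.6 CPM in WT (adjusted p = 0.0499), and its call was lost whichever library was left out. Gas6, the MERTK ligand, was at 237 ± 26.4 CPM in KO M2 and 191 ± 23.2 CPM in WT M2 and was not called (adjusted p = 0.11). It is named here after its values were seen.

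Whether the response to IL-4 differed between genotypes was tested as an interaction over the 12 libraries. None of 14825 genes was called by edgeR (0%), although 1327 had an unadjusted p under 0.05 and the DESeq2 Wald test called 74. Among the 9 genes the differences between the KO and the WT response were largest for Mertk, at 0.44 (SE 0.12, 95% confidence interval 0.19 to 0.68, adjusted p = 0.19), and Maf, at 0.38 (SE 0.11, 0.16 to 0.61, adjusted p = 0.23), both in the direction of a smaller drop in KO, and neither was called by edgeR or DESeq2 although both had an unadjusted p under 0.05. For Cd14 the value was -0.31 (-0.64 to 0.02, adjusted p = 0.59), and for the remaining 6 it lay between -0.13 and 0.07. When no filter on low counts was used Mertk and Maf were both called (adjusted p = 0.039 and 0.038), in a fit that called 341 genes in all. With a library left out, neither was called in any of 12 fits, and Mertk ranged from 0.36 to 0.49 and Maf from 0.30 to 0.44.

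**Figure D5:**
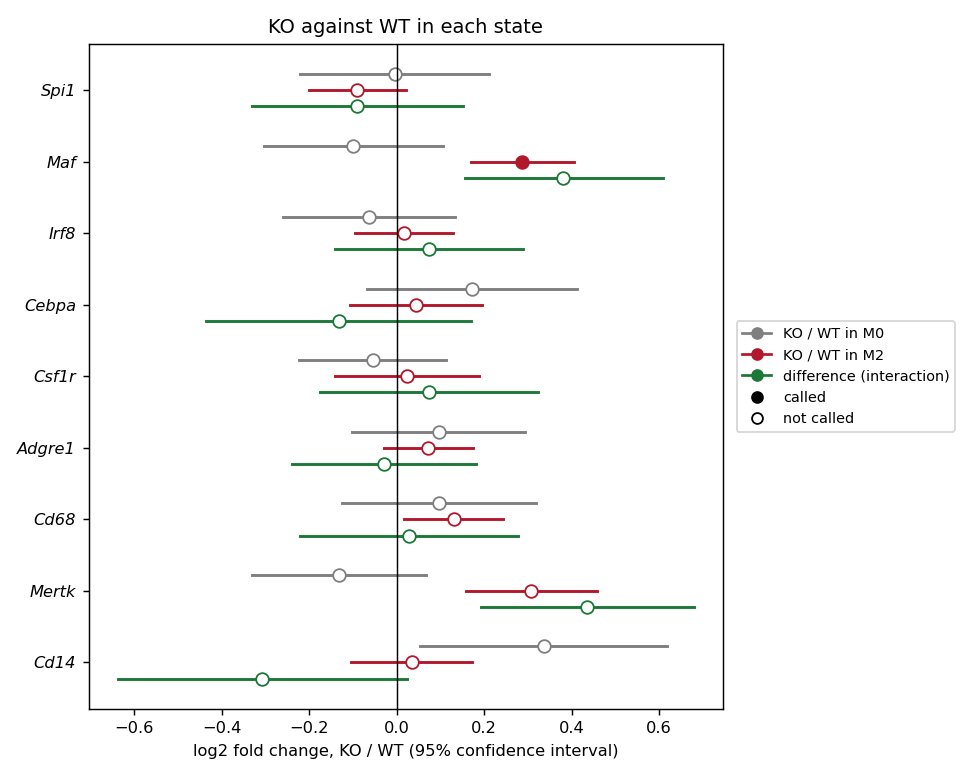
Log2 fold change of KO over WT in M0 (grey) and in M2 (red), and their difference, the interaction (green), for each gene with 95% confidence intervals. Maf in M2 is the only filled (called) point (0.29), and Mertk in M2 (0.31) has an interval above 0 but an adjusted p of 0.051. Open points with intervals above 0 are also Cd68 in M2, Cd14 in M0, and Maf and Mertk in the interaction.

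The genes whose pattern over the 12 libraries was most like that of each of the 9 were found by Pearson's r of log2 CPM among 14734 other genes. As all points share the split between M0 and M2, r mostly reflects that split and is given as a description. Closest to Maf were Rhobtb1 (r = 0.998) and Hpgds, the hematopoietic prostaglandin D synthase gene (r = 0.996). Hpgds was at 474 ± 11.1 CPM in WT M0, 420 ± 55.4 CPM in KO M0, 74.5 ± 9.15 CPM in WT M2 and 92.4 ± 5.87 CPM in KO M2. Among the closest to Mertk was Pmp22, a myelin protein gene (r = 0.993), which was at 155 ± 5.9, 143 ± 15.5, 65.8 ± 4.5 and 78.5 ± 5.34 CPM in the same order of groups. Irf8 was followed most closely by Coq2 and Cited2 (both r = 0.995).

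Closest to Cebpa were S100a6 (r = 0.996) and Gm45091 (r = 0.995), a long noncoding RNA gene on the opposite strand (chr7:34817003-34819030, minus strand) whose span reaches into the start of Cebpa. Gm45091 was at 4.09 ± 0.651 CPM in WT M0 and 10.5 ± 0.0464 CPM in WT M2, and at 4.52 ± 0.305 and 10.2 ± 1.1 CPM in KO. Counting was by strand, so reads of both genes were kept apart as far as the libraries keep strand. Cd14 was most like Slc20a1 (r = 0.98) and Uap1 (r = 0.965), Adgre1 like Tor4a (r = 0.976) and Gpr180 (r = 0.972), Cd68 like Pink1 (r = 0.973) and Imp3 (r = 0.951), and Spi1 like Cotl1 (r = 0.961) and Eif4g2 (r = 0.953). Csf1r, with the smallest change, had the loosest neighbours, Ang (r = 0.913) and Arhgef10l (r = 0.903).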

How the data were processed

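RNA from 12 macrophage cultures was compared, 3 libraries in each of 4 groups. The authors trimmed the reads with Trimmomatic, removed duplicates with Picard, aligned to GRCm39 with STAR and made strand-specific gene counts with featureCounts. The authors deposited these counts in 4 tables, each with 2 of the groups. They also deposited a signal, the counts divided by DESeq2 size factors, used here only for levels as an alternative. Removal of duplicates can lower the counts of abundant, short genes. Columns were assigned to groups by name, and the library numbers 1 to 3 are not tied to samples.

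Genes were tested with edgeR 4.0.16 (R 4.3.3; TMM, filterByExpr, quasi-likelihood) on the 6 libraries of a pair, or on all 12 for the interaction, with Benjamini-Hochberg adjustment over all genes tested. A call needed an adjusted p under 0.05 and, except for the interaction, an absolute log2 fold change over 0.263. Standard errors are the log2 fold change divided by the square root of F. The fit was tested on simulated data. Of 56941 gene identifiers, 56323 were found in a GENCODE annotation of GRCm39, the source of symbols, transcripts and coordinates, and lengths are unions of exons. The miRNA and promoter sequences came from RefSeq.

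The 9 genes and the related lists were chosen with earlier results of these data known. Named from the lists were up to 3 genes per direction with the largest change among those called in WT M2 against M0, every gene called in a comparison of KO with WT or in the interaction, and the 2 genes most like each of the 9, except that a few of these genes are not reported here. No 2 libraries of the same group agreed within counting noise. Alternatives were the DESeq2 1.42.0 Wald test, RLE normalization, no or a stricter filter on low counts, a fit of all 12 libraries, a log2 limit of 1, protein-coding genes only with an average over 10, the library number as a block, and each library left out in turn.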

Additional observations from a re-analysis of the deposited data

How the results depend on the processing

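The number of the 9 genes called in M2 KO against WT, 1, became 2 with the DESeq2 Wald test or without a filter on low counts and 0 in the fit of all 12 libraries or with a log2 limit of 1, and 0 to 2 with a library left out. In M0 KO against WT it was 1 (Cd14) without the filter, in the interaction 2 without the filter, and a limit of 1 lowered it to 3 in WT and 2 in KO M2 against M0. Over all genes, M0 KO against WT gave 65 calls, 210 with DESeq2, 532 without the filter, 248 in the fit of 12 libraries, 27 with the limit of 1 and 20 to 302 with a library left out. M2 KO against WT gave 137 calls, 360 without and 91 with a stricter filter, 60 in the fit of 12 libraries, 40 with the limit of 1 and 53 to 215 with a library left out. The limit of 1 left 2042 calls in WT and 1800 in KO M2 against M0, and the interaction gave 74 calls with DESeq2, 341 without the filter and 0 to 77 with a library left out. Without the filter edgeR's adjusted p values could also be far smaller, as for Maf in WT M2 against M0 (1.6e-131, beside 9.22e-10 with the filter). The cause of these changes was not tested. With the library number as a replicate block, M0 KO against WT gave 284 calls and M2 KO against WT 289 with 2 of the 9 genes, Mertk being added. Deviations of same-numbered libraries correlated at 0.167, 0.516 and 0.057 in M0 KO against WT and at -0.19, 0.237 and 0.179 in M2 KO against WT, and the own number was the best match for 2 and 1 of the 3. In M2 against M0 r lay between -0.49 and 0.135. In no comparison was r over 0.1 for all 3 numbers, so the numbers were not taken as pairs. Signs turned only for differences that were not called: in M0 KO against WT Spi1 (0.003 without the filter, -0.078 to 0.086 with a library left out) and Irf8 (-0.122 to 0.002), in M2 KO against WT Csf1r (-0.078 to 0.100), Irf8 (-0.008 to 0.029), Cebpa (-0.025 to 0.125) and Cd14 (-0.038 to 0.084), and in the interaction Adgre1 (-0.086 to 0.025), Cd68 (-0.055 to 0.090) and Csf1r (-0.031 to 0.145), the ranges being those with a library left out. Levels from the deposited normalized values moved by less than the spread between libraries in all 36 cases. Depth limits Mir210, with at most 5 counts, and Gata2 in M0.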
